A study of Rattus norvegicus with 4 samples.

Results

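Iron and haem handling was described here through 10 genes of NR8383 cells, a line of rat alveolar macrophages that goes back to lung lavage of a normal rat. The genes were chosen for what they do and not for their values, and they were found on the arrays by matching the RefSeq accession of each probe, without its version, to the rat symbols Hmox1, Fth1, Ftl1, Ncoa4, Slc48a1, Slc11a1, Slc40a1, Hamp, Tfrc and Ireb2. All 10 had a probe, which made 13 of 21109 named probes and 10 of 16581 named genes. The cells were at 20 passages and had spent 4 h with NRCWE055, which is a single-walled carbon nanotube in its pristine form, at a dose of 11 cm2/cm2. They formed 1 exposed group of 4 samples, which the study design calls biological replicates, with 1 single-colour array for each. Unexposed cells were not analysed here, so no value is a response to the nanotubes. The line is a single cell line grown in culture, partly attached and partly floating, and not a sample of lung tissue. For replicates 2, 3 and 4 the source name gives another nanotube code than the title, and grouping went by the title. Of 10 macrophage marker genes, 9 had a probe and all 9 were detected, among them Cd68, Csf1r, Spi1 and Pparg, whereas 1 of 9 measured erythroid markers (Hba-a1) and 0 of 10 hepatocyte markers were. Over all named genes the detected share was 52.4%.

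Macrophages that recycle red cells take up iron mainly as haem from the engulfed cells, and macrophages also take up transferrin. Haem leaves the phagolysosome through the haem transporter encoded by Slc48a1, and haem oxygenase 1, encoded by Hmox1, splits it into biliverdin, carbon monoxide and iron. Iron is then stored in ferritin, a shell of heavy and light chains encoded by Fth1 and Ftl1, or leaves the cell through ferroportin, encoded by Slc40a1, which the liver hormone hepcidin, the product of Hamp, removes from the surface. The iron regulatory proteins, among them the product of Ireb2, bind ferritin and transferrin receptor messages when iron is scarce. For ferritin, the protein and the message therefore need not follow each other.

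Signal well above background on every array was found for 9 of the 10 genes, where 52.4% of all named genes had it. A probe counted as detected when Agilent's flag for a signal well above background was set, and a gene when at least 1 of its probes was detected on every array. Ferroportin was the gene not detected. Processed signals are intensities after background subtraction, on a linear scale, and the lowest signal of a detected probe was 15.6, 15.6, 15.9 and 15.8 on replicates 1 to 4. Replicates 2 and 3 were the brighter arrays by their 75th percentile signal, 2631 and 2861, against 1756 on replicate 1 and 1873 on replicate 4. Levels are therefore log2 signals minus the 75th percentile of the same array, taken over probes detected throughout, with the SD over 4 arrays (n = 4). A level belongs to its probe, and levels of different probes or genes are not compared. None of the spots of the 10 genes was saturated or marked as an outlier on any array. In RNA from whole cultures, fewer cells carrying a transcript and less of it per cell cannot be told apart.

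**Figure D1:**
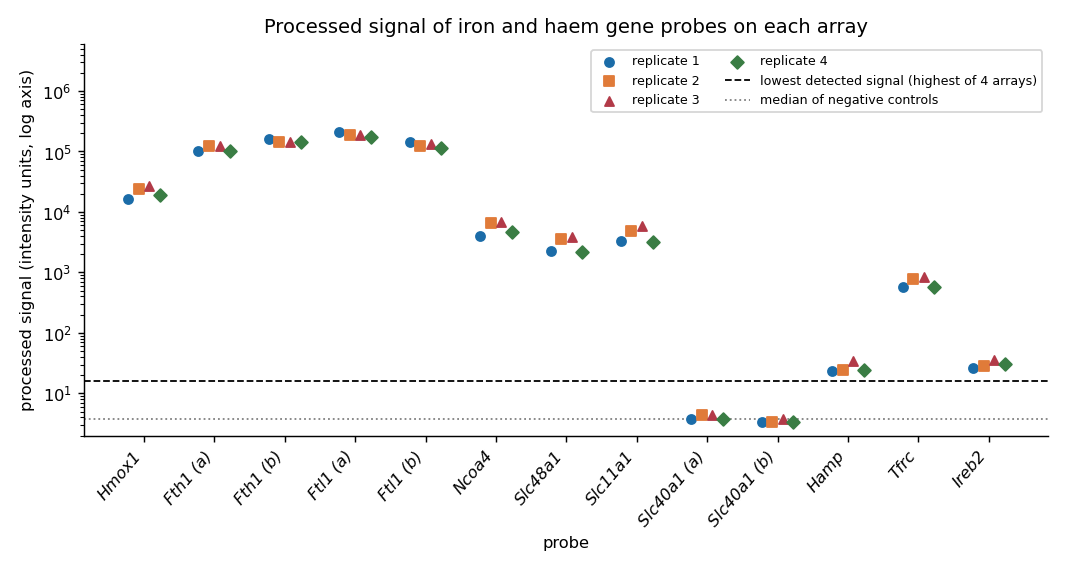
Processed signal of the 13 probes (x axis) in intensity units on a log axis, 1 point per array, with the lowest signal of a detected probe (dashed) and the median of the negative control spots (dotted). Both Slc40a1 probes lie at the level of the negative controls, the Hamp and Ireb2 probes lie just above the dashed line at 23.4 to 35.2, and the other probes lie far above it. Letters a and b mark the probes of 1 gene in the order of the text.

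Hmox1, whose product opens the haem ring and frees its iron, was read by 1 probe and was clearly detected on every array. Its processed signal was 16394 on replicate 1, 24303 on replicate 2, 26768 on replicate 3 and 18760 on replicate 4. The signal was between 1050 and 1681 times the lowest detected signal of its array, and it followed the brightness of the arrays. Replicate 3 was 1.63 times as bright as replicate 1 for Hmox1, and the 75th percentile differed by 1.63 as well. After scaling, Hmox1 was at 3.22, 3.21, 3.23 and 3.32 on replicates 1 to 4, a mean of 3.25 ± 0.053. Replicates 1, 2 and 3 lay almost together and replicate 4 lay above them. The highest and lowest arrays differed by 1.08-fold, which is less than the error of 10.0% that the scanning software gives for each single spot of this probe. That software gave 10.0% for every detected probe of the 10 genes other than those of Hamp and Ireb2. On the log2 scale this error is 0.14, above the median SD between arrays of all detected probes, 0.107. An SD below it therefore does not set a gene apart.

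Averaged over their probes, the ferritin genes had SDs between arrays of 0.38 for Ftl1 and 0.30 for Fth1, beside 0.045 to 0.26 for the other detected genes. That order depended on the processing, since Ireb2 exceeded both without replicate 1, Hamp and Ireb2 exceeded both with quantile normalization and exceeded Fth1 without replicate 3, and Hamp exceeded Fth1 with normexp correction. Fth1 encodes the heavy chain, which oxidises iron for storage, and it was read by probe A_44_P1144205 at 100492, 125267, 122731 and 102815 on replicates 1 to 4. Its other probe, A_64_P075640, was at 159725, 145792, 140949 and 143348. Only the first of them was brighter on replicates 2 and 3, as the arrays were. Ftl1 encodes the light chain, which helps the iron core to form, and its probe A_44_P1158929 was at 206827, 189864, 187262 and 175849 on replicates 1 to 4. Probe A_64_P004348 of Ftl1 was at 144446, 125275, 134354 and 116421. Replicate 1 was thus the brightest array for 3 of the 4 ferritin probes although it was the dimmest array by its 75th percentile.

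Relative to that percentile, all 4 ferritin probes were higher on replicates 1 and 4 than on replicates 2 and 3, which also held for normexp and the other zero points but not for the first Fth1 probe with quantile normalization. Fth1 was at 5.84, 5.57, 5.42 and 5.78 on replicates 1 to 4 by its first probe, a mean of 5.65 ± 0.19. By its other probe it was at 6.51, 5.79, 5.62 and 6.26, a mean of 6.05 ± 0.41. For both probes the values of replicates 1 and 4 lay above those of replicates 2 and 3. Ftl1 was at 6.88, 6.17, 6.03 and 6.55 by its first probe, a mean of 6.41 ± 0.38. By its other probe Ftl1 was at 6.36, 5.57, 5.55 and 5.96, a mean of 5.86 ± 0.38. All 4 probes had replicate 1 highest and replicate 3 lowest under this scaling.

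These differences were larger than the software's error of a spot. That error was the same for all bright probes and is given per array, so it leaves out differences in scaling between arrays. The span between the highest and the lowest array was 1.33-fold and 1.85-fold for the Fth1 probes and 1.80-fold and 1.75-fold for the Ftl1 probes, beside a spot error of 10.0%. The SD between arrays was 2.83 times the spot error for the second Fth1 probe and 2.65 times for both Ftl1 probes, but 1.32 times for the first Fth1 probe. Of the 17807 probes detected on all arrays, 2.64% had a larger SD than the second Fth1 probe and 21.7% a larger SD than the first. The ferritin probes were each printed once on the array, so no test over replicate spots could be made for them.

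Very bright probes as a whole moved in the same direction as ferritin on each array. Over the 210 detected probes with a mean signal above 100000, a limit chosen after the ferritin values were seen, the median deviation from the mean of the 4 arrays was 0.21 on replicate 1, -0.11 on replicate 2, -0.20 on replicate 3 and 0.09 on replicate 4. Over all detected probes it was between -0.014 and 0.014 on every array. The SD of the bright probes had a median of 0.20 and a 95th percentile of 0.37. The first Fth1 probe, at 0.19, lay near that median. The second Fth1 probe and both Ftl1 probes, at 0.38 to 0.41, lay above that percentile. In processed signal, replicate 3 over replicate 1 had a median ratio of 1.22 over the bright probes, beside 1.22 and 0.88 for the Fth1 probes and 0.91 and 0.93 for the Ftl1 probes, and of 1.63 over all detected probes. The ferritin probes reached 12.9% to 26.5% of the scanner's saturation value. Quantile normalization, which takes out differences that probes of like brightness share, gave an SD of 0.049 and 0.20 for the Fth1 probes and of 0.13 and 0.20 for the Ftl1 probes, and the part of brightness in the ferritin spread was not tested further.

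**Figure D2:**
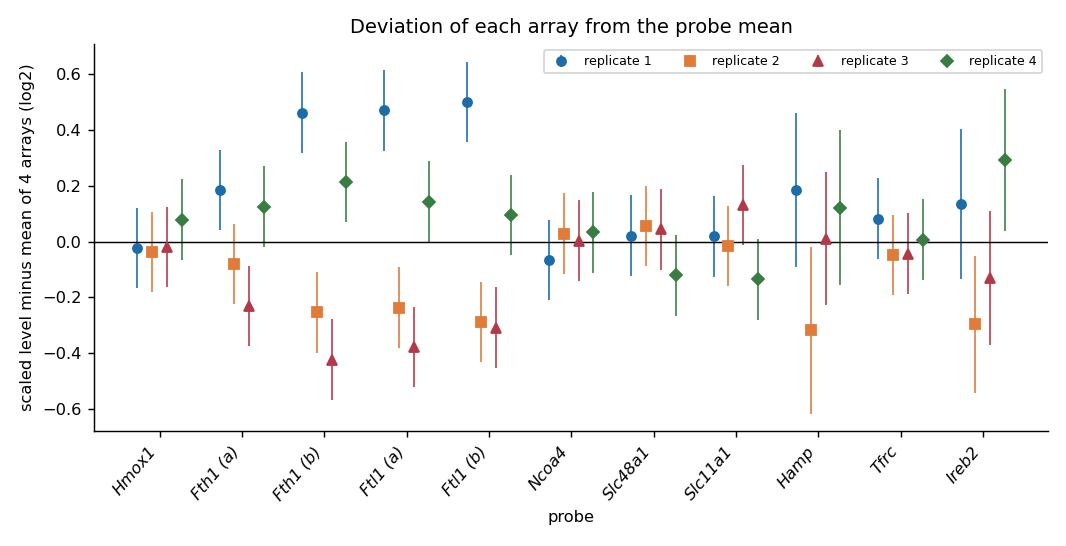
Scaled level of each detected probe on each array minus the probe's mean over the 4 arrays (y axis, log2), with bars for the software's error of a single spot. For the second Fth1 probe and both Ftl1 probes replicate 1 lies at 0.46 to 0.50 and replicate 3 at -0.42 to -0.31, whereas the arrays of Hmox1, Ncoa4 and Tfrc lie within 0.083 of 0.

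The ferritin probes may also read more than 1 locus. The RefSeq gene table of assembly GRCr8 holds 6 further loci named as Fth1 copies, 5 of them pseudogenes, and 21 named as Ftl1 copies, 15 of them pseudogenes, and no probe was matched to any of these. Copies of a gene can share its sequence, so the signal of the ferritin probes is uncertain as to its locus. The Fth1 probes did not keep a fixed distance, since the first lay below the other by between 0.20 on replicate 3 and 0.67 on replicate 1. The Ftl1 probes kept theirs, at 0.55 ± 0.059.

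**Figure D3:**
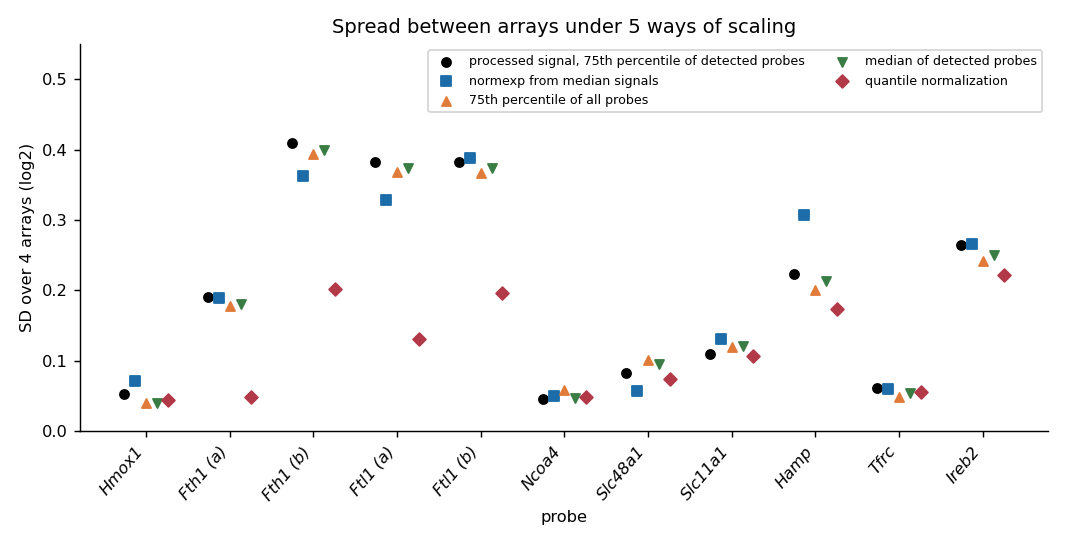
SD over the 4 arrays (y axis, log2) of each detected probe under 5 ways of scaling the arrays. The ferritin probes lie at 0.18 to 0.41 under 4 of them and at 0.049 to 0.20 under quantile normalization, and the other probes move by less.

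Ncoa4 encodes the cargo receptor that delivers ferritin to the lysosome for iron release. Its probe was at 4040, 6460, 6903 and 4615 on replicates 1 to 4, which scaled to 1.20, 1.30, 1.27 and 1.30. The mean level was 1.27 ± 0.045, and 89.4% of all detected probes had a larger SD under this scaling. Ncoa4 was therefore close to level across the arrays. This draws no contrast with ferritin, whose probes are far brighter. With quantile normalization the SD was 0.049 for Ncoa4, beside 0.049 for the first Fth1 probe and 0.13 to 0.20 for the other ferritin probes.

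The transporters of the phagolysosome were both detected and differed little between cultures. Slc48a1, whose product passes haem out of the phagolysosome, was at 2286, 3506, 3783 and 2209 on replicates 1 to 4. After scaling it was at 0.38, 0.41, 0.40 and 0.24, a mean of 0.36 ± 0.082, with replicate 4 below the others. Slc11a1 encodes NRAMP1, which moves divalent metals across the phagosome membrane of macrophages. Its signals were 3292, 4814, 5798 and 3155, and its levels 0.91, 0.87, 1.02 and 0.75, a mean of 0.89 ± 0.11. Replicate 3 was highest and replicate 4 lowest for Slc11a1, 1.20-fold apart. For both genes the SD was below the software's spot error of 0.14 on the log2 scale, as was the median SD of all detected probes, 0.107.

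Iron export stood apart, because the exporter was at the level of the negative controls. Slc40a1 encodes ferroportin, the known iron exporter of mammalian cells, and probe A_44_P819401 was at 3.75, 4.36, 4.34 and 3.81 on replicates 1 to 4. Its other probe, A_64_P101204, was at 3.37, 3.36, 3.82 and 3.41. The 308 negative control spots had a median of 3.85, 3.64, 4.16 and 3.73 on the same arrays. Between 40 and 174 of them were at least as bright as the first probe and between 218 and 247 as the other. Both probes were also below a looser flag that asks only for a signal significantly above background. The signal was at most 0.28 times the lowest detected signal of its array, so Slc40a1 was not well above background by either probe, and these arrays do not tell a low level from none.

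Hamp, the gene of hepcidin, was detected close to the limit. Its signals were 23.4, 24.8, 33.8 and 23.9 on replicates 1 to 4, which is 1.50 to 2.12 times the lowest detected signal. Of 308 negative control spots, 2, 2, 0 and 1 were at least as bright on these arrays. The spot error was 16.5% to 20.6%, and the levels of -6.23, -6.73, -6.40 and -6.29 gave a mean of -6.41 ± 0.22, a spread below the spot error of 0.27. Hepcidin is made mainly by hepatocytes, and monocytes and macrophages are known to make it at low levels. None of 10 hepatocyte markers, Alb and Ttr among them, was well above background on any array.

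The promoters of the exporter, of its hormone and of the transferrin receptor are shown because these genes lay below, at and far above the detection limit. They are the 250 bases before the annotated start, from RefSeq on GRCr8, where 5 of the 10 genes had an entry, and all 3 lie on the minus strand. Hamp is at chr1:95300272-95300521, Slc40a1 at chr9:55543461-55543710 and Tfrc at chr11:81690319-81690568. Capitals mark matches, on either strand, to the STAT-type motif TTCNNNGAA, the BMP-responsive motif GGCGCC, the antioxidant response core TGACNNNGC and the hypoxia response core ACGTG.
Hamp: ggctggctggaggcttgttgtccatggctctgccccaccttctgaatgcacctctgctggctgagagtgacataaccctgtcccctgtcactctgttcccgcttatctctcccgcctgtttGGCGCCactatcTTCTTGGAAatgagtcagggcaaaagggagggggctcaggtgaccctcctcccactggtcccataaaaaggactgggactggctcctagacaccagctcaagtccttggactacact
Slc40a1: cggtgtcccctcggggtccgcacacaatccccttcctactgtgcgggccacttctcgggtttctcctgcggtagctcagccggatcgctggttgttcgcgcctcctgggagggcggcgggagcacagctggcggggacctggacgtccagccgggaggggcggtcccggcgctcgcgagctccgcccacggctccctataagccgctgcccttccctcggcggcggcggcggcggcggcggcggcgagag
Tfrc: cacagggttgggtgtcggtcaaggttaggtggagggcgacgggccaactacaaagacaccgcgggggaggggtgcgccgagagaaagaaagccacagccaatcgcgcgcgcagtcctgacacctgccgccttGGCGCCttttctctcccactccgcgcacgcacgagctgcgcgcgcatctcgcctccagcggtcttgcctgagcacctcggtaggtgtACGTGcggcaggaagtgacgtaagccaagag
Hamp held a STAT-type motif beginning 117 bases before the start and a BMP-responsive motif at 129 bases. In human and mouse these signals, from interleukin 6 and from bone morphogenetic proteins, are known to drive hepcidin. Tfrc held a BMP-responsive motif at 118 bases and a hypoxia response core at 31 bases, and Slc40a1 held a match to none of the 4 motifs in this window. Of the promoters not shown, Ncoa4 held a BMP-responsive motif at 41 bases, an antioxidant response core at 52 and a hypoxia response core at 75. Ireb2 held none. The BMP-responsive motif was thus not particular to Hamp. Among 33469 promoters of the same length, 7.67% held the STAT-type motif, 8.69% the BMP-responsive motif, 10.1% the antioxidant response core and 16.6% the hypoxia response core. A match describes letters and not binding.

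Tfrc encodes the transferrin receptor, which brings iron into the cell by endocytosis, and it was the gene of the 10 whose probe was printed 2 times on each array. The spots read 577 and 567 on replicate 1, 808 and 759 on replicate 2, 908 and 804 on replicate 3, and 588 and 571 on replicate 4. After scaling, the spots of replicates 2, 3 and 4 overlapped and those of replicate 1 lay just above them, with means of -1.62, -1.75, -1.74 and -1.69 on replicates 1 to 4 and of -1.70 ± 0.061 over the arrays. The largest difference between arrays was 0.13, equal to 1.09-fold, and it did not pass limma's moderated F test over replicate spots (adjusted p = 0.443 with Benjamini-Hochberg adjustment over 1742 probes, of which 42.8% passed). Among the 704 tested probes printed 2 times, 64 passed.

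Ireb2, which encodes iron regulatory protein 2, was detected near the limit. Its signals were 26.0, 28.9, 35.2 and 30.9 on replicates 1 to 4, or 1.66 to 2.21 times the lowest detected signal. At most 2 of the 308 negative control spots of an array were as bright. The levels were -6.08, -6.51, -6.35 and -5.92, a mean of -6.21 ± 0.26, with replicate 4 highest and replicate 2 lowest. The SD was close to the spot error of 0.25, so differences between these arrays cannot be read for Ireb2.

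**Figure D4:**
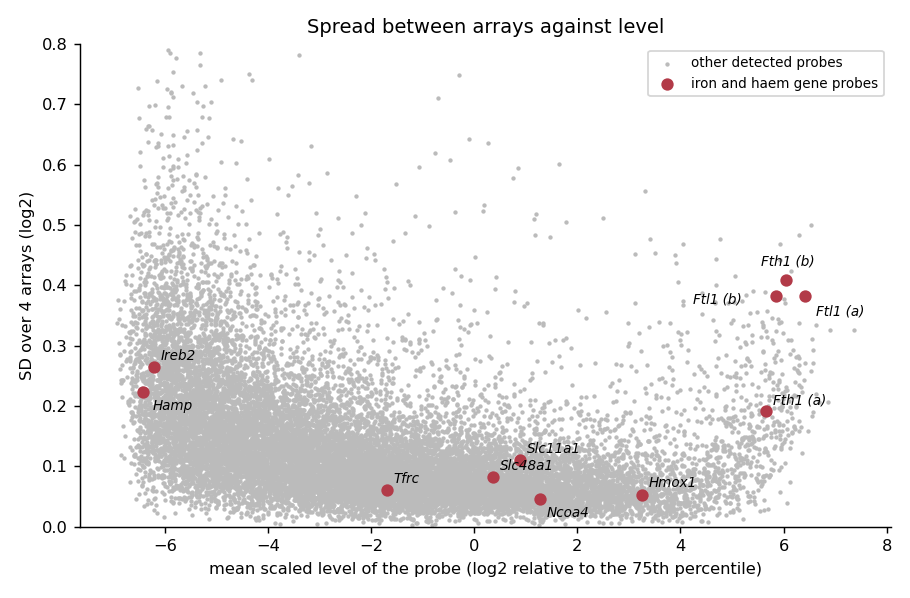
SD over the 4 arrays (y axis, log2) against the mean scaled level of the probe (x axis, log2 relative to the array's 75th percentile) for all probes detected on all arrays, with the 11 detected probes of the iron and haem genes marked. The axis ends at 0.8, which leaves out 34 probes. Ferritin lies among the bright probes, where SDs are higher than in the middle of the range. The second Fth1 probe and both Ftl1 probes lie above 0.37, the 95th percentile of SD over detected probes with a mean signal above 100000. Hamp and Ireb2 lie among the dim probes.

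Across the 9 detected genes the median SD was 0.11, beside 0.093 over the 8685 detected genes, and none of the 9 spanned over 2-fold between arrays, as 96 of all detected genes did. Hmox1, Ncoa4, Slc48a1, Slc11a1 and Tfrc had signals below those of ferritin and above those of Hamp and Ireb2. Their SDs were 0.045 to 0.11. Those of the dim Hamp and Ireb2 were 0.22 and 0.26, where 2158 detected probes with a mean signal below 50 had a median of 0.23.

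The rest of the pathway was read from 63 further genes, of which 56 had a probe and 45 (80.4%) were detected on all arrays, beside 52.4% of all named genes. In haem uptake, transport and breakdown 5 of 9 measured genes were detected. The constitutive haem oxygenase gene Hmox2 was at -0.06 ± 0.11, and the biliverdin reductase genes Blvra and Blvrb were at 0.29 ± 0.082 and 2.19 ± 0.058, although the Blvra probes lay 3.58 apart. Enzymes for haem breakdown were thus all above background. Lrp1, the receptor for haem bound to haemopexin, was at -2.20 ± 0.15. Cd163, the receptor for haemoglobin bound to haptoglobin, was not well above background on any array, nor were the transporter genes Flvcr2, Slc46a1 and Abcg2. No probe was matched to the haem exporter gene Flvcr1.

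Iron uptake and endosomal transfer had 8 of 10 genes detected. Slc11a2, which encodes the endosomal iron transporter DMT1, was at -0.84 ± 0.058, and Mcoln1, a lysosomal cation channel, was at 0.38 ± 0.066. Steap3, which encodes the endosomal ferric reductase, was at -5.12 ± 0.11. The related reductase genes Steap4 and Cybrd1 were not well above background. Slc39a14, which encodes a transporter of iron not bound to transferrin, was at -5.87 ± 0.20, with dim signals of 27.0 to 57.1. Lcn2, whose product lipocalin 2 binds iron-carrying siderophores, was at 3.15 ± 0.11.

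Among storage, chaperone and export genes 3 of 4 were detected. Pcbp2, an iron chaperone gene, was at 1.44 ± 0.096, and no probe was matched to Pcbp1. The ferroxidase gene Cp was near the limit at -6.25 ± 0.27, and Heph, which encodes the related ferroxidase hephaestin, was not well above background. In iron sensing and the hepcidin circuit 3 of 6 were detected, with Epas1, Hjv and Bmp6 below detection. Aco1, which encodes iron regulatory protein 1, was at 1.75 ± 0.040 and Hfe, a regulator of hepcidin, at -2.20 ± 0.021, its pair of probes lying 2.20 apart. Fbxl5, whose product marks Ireb2 protein for degradation, had no matched probe.

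All 12 measured genes of mitochondrial iron and iron-sulphur cluster assembly were detected, and so were all 9 of haem synthesis. Slc25a37, which encodes a mitochondrial iron importer, was at -5.67 ± 0.24, with dim signals of 37.4 to 53.4, and the cluster scaffold gene Iscu at 1.02 ± 0.055. Alas1, the gene of the first and rate-limiting enzyme of haem synthesis outside red cells, was at 2.95 ± 0.035. Fech, which encodes the enzyme that inserts iron into the haem ring, was at -0.59 ± 0.057. The erythroid form Alas2 was not well above background.

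Regulators that respond to haem were detected for 5 of 6 measured genes. Bach1, which encodes the repressor of Hmox1 that haem inactivates, was at -5.51 ± 0.18, its probes lying 1.38 apart. Nfe2l2, which encodes the activator NRF2, was at 0.31 ± 0.062, and its probe, printed 2 times, did not pass the limma F test between arrays (adjusted p = 0.468). Eif2ak1, the gene of the haem-regulated kinase, was at 0.31 ± 0.048, and Nr1d1, which encodes a haem-binding nuclear receptor, was not well above background. No probe was matched to Spic, the gene of a transcription factor of iron-recycling macrophages.

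**Figure D5:**
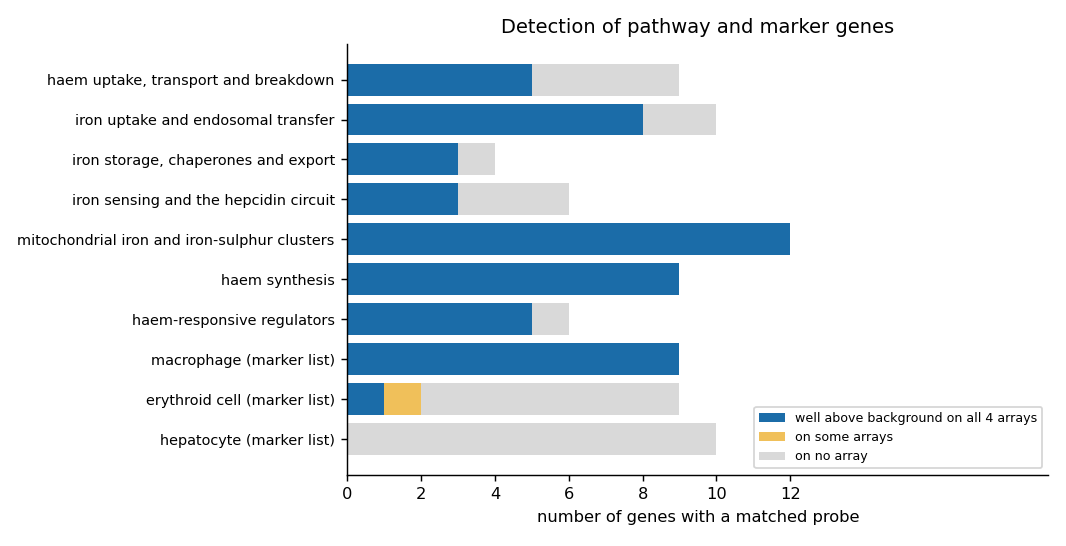
Number of genes with a matched probe (x axis) in 7 pathway lists and 3 marker lists, split by whether they were well above background on all 4 arrays, on some or on none. Mitochondrial iron and haem synthesis genes were all detected, with 12 of 12 and 9 of 9, whereas 0 of 10 hepatocyte markers were.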

How the data were processed

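Total RNA of 4 exposed NR8383 cultures was labelled with Cy3 and measured on 1-colour Agilent arrays, all on 1 slide, so slide could not be tested as a batch. Each deposited file lists the spots of 1 array, read with Agilent Feature Extraction 11.0.1.1 per the submitters' processing notes. The deposited processed signal is an intensity from which that software had removed background and spatial trends, with no scaling between arrays. Its error and the median spot and background intensities were used as deposited. The deposited flags for detection, saturation and outliers are 0 or 1.

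Control spots and outlier spots (427 to 714 per array) were left out, and log2 signals were averaged per probe over 45598 probes. Between 40.8% and 43.7% of probes were detected per array, so the 75th percentile for scaling was taken over the 17807 probes that every array detected. Probes were named through RefSeq accessions in a table of assembly GRCr8, 21109 of them (46.3%). Detected probes of 1 gene were averaged. With 4 arrays, precision is limited by their number. The array was designed on an older build, and its coordinates are not used here.

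Probes printed several times were compared between arrays with limma (version 3.58.1, under R 4.3.3), with array as the factor, at an adjusted p under 0.05. Spots are replicates within an array, so array, labelling and culture cannot be told apart. In simulated data for this comparison over 1742 probes, shifts of 0.1, 0.25, 0.5 and 1 on 1 array were recovered for 4%, 56%, 96% and 100% of 50 probes each, with 7 calls among 1542 unchanged probes. Shifted probes were drawn from all of these, 1038 printed 10 times and 704 printed 2 times, with the same spot noise. The recovery for probes printed 2 times, such as those of Tfrc and Nfe2l2, was not simulated apart and cannot be read from these shares. The genes and lists were chosen with earlier results of these data known. The genes named were all 10, whatever their values, and 28 further pathway genes fixed by name, of which 1 is not reported here, besides genes named for being below detection. The alternatives were normexp on median signals with offset 50, since mean spot signals are not used here, 3 other scalings, other detection rules, the brightest probe per gene, no filter on dim probes, outlier spots kept, and leaving out each replicate.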

Additional observations from a re-analysis of the deposited data

Results flagged for a closer look

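In 31 series of 4 arrays, 11 of them probes of the iron and haem genes and 20 further pathway genes, the gap between 1 array and the nearest other was set against the range of all 4, with Dixon's 95% critical value as the limit. It passed in 2 series, where chance gives about 1.55.

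Hmox1 had a ratio of 0.841. Replicate 4 was at 3.32, and replicates 1, 2 and 3 lay between 3.21 and 3.23. The distance is small, since the whole range was 1.08-fold and lay within the software's error of a single spot.

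Cp, a copper-containing ferroxidase gene near the detection limit, had a ratio of 0.941. Replicate 4 was at -5.86, and the other arrays lay between -6.40 and -6.37.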

How the results depend on the processing

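The count of 9 detected genes of 10 was the same with outlier spots kept, with the looser flag, with detection on at least 3 arrays and without each replicate. The count of detected pathway genes was 46 with the looser flag and 45 under the other detection alternatives. The median SD of the 9 genes, 0.11, was 0.077 to 0.13 without each replicate, and without the filter on dim probes, which adds the undetected Slc40a1, it was 0.17, where that of all named genes was 0.24. The adjusted p of the Tfrc probe was 0.303 to 0.837 without each replicate and 0.476 to 0.904 with other scalings, normexp or outlier spots kept. The number of all probes past that test was 222 with normexp, against 746, and the cause was not tested.

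Of 90 level values under alternatives, 83 moved by less than the SD between arrays. The other 7 came from normexp with its offset, which shifted the median gene by 0.20 and drew dim and bright levels together. Hamp was then at -4.81 and Hmox1 at 2.92, relative to that shift. The other scalings that changed the zero point moved the median gene by 3.61 (75th percentile of all probes) and 2.43 (median). Of 90 SDs of single genes, 8 moved by over 1.5 times. Quantile normalization gave 0.11 for Fth1 and 0.16 for Ftl1. Without replicate 1 the SD was 0.25 for Ftl1, 0.016 for Ncoa4 and 0.031 for Tfrc, without replicate 2 it was 0.089 for Hamp, and without replicate 4 it was 0.0100 for Hmox1 and 0.017 for Slc48a1. No paired analysis was possible because there is 1 group. Signal over background limits Slc40a1, Hamp and Ireb2.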

Other observations

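Haemoglobin genes, which carry much of the body's haem, were split in these cells. Hba-a1, an alpha globin gene, was well above background on all 4 arrays, at 394, 422, 417 and 323 in processed signal on replicates 1 to 4. Scaled, it was at -2.16, -2.65, -2.79 and -2.54, a mean of -2.54 ± 0.27. Its probe was printed 10 times, and its arrays differed by 1.54-fold in limma's moderated F test over replicate spots (adjusted p = 4.70e-08), with replicate 1 highest. Near-identical alpha globin copies may share this probe, so its locus is uncertain. The beta globin gene Hbb was not well above background on any array. Of the other erythroid markers, Klf1 was detected on 3 arrays, and Alas2, Gata1, Ahsp, Epb42, Rhag and Slc4a1 were below detection on all 4. Macrophage genes among those tested the same way differed between arrays too, with Ctsd, also printed 10 times, spanning 1.50-fold (limma adjusted p = 8.12e-14). Of the 1038 tested probes printed 10 times, 682 (65.7%) passed that test, so passing it sets neither gene apart. The choice of Hba-a1 for this paragraph was made after its values were seen.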
